A study of Mus musculus with 12 samples.

Results

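The 10 genes described here encode enzymes of gluconeogenesis (Pck1, G6pc, Fbp1 and Pcx), the coactivator Ppargc1a, the insulin receptor Insr with its docking proteins Irs1 and Irs2, and the secreted binding proteins Igfbp1 and Igfbp2. They were listed by name, with earlier results of these data known, and all 10 were found among the 48526 genes of the deposited table and among the 11968 genes that could be tested. RNA was sequenced from whole livers of C57BL/6J mice, an inbred laboratory strain, which were 8 to 10 weeks old when their diets began. Female and male mice received chow, or the same with simvastatin, which blocks the HMG-CoA reductase step of cholesterol synthesis, for 4 weeks. Each sex thus had a chow and a statin group, and these 4 groups held 3 livers each, 12 in all, each from a different mouse. The study's methods give the simvastatin dose as 0.1 g per kg of food, while the labels give 0.1 g per kg of body weight. The labels name the same chow formulation in all groups, and the methods name that formulation for the simvastatin chow. Whether these mice were fasted when their livers were taken, and at which time of day, is not given in the sources used here.

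Between meals the liver releases glucose made by gluconeogenesis, and glucagon acting through cAMP raises the transcription of its enzymes. Insulin acts through its receptor, the docking proteins IRS1 and IRS2 and the kinase AKT to exclude the transcription factor FOXO1 from the nucleus, which lowers Pck1, G6pc, Igfbp1 and Irs2. In a fasted or low-insulin liver these genes are therefore known to be high and genes that insulin raises to be low.

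Promoters of 3 of the genes are shown because each holds a short motif tied to cAMP or insulin control. They are RefSeq sequences of the plus strand of GRCm38.p6, reaching from 250 bases before to 50 bases after the annotated start. The Pck1 window lies at chr2:173152823-173153122, the G6pc window at chr11:101367466-101367765 and the Igfbp1 window at chr11:7197537-7197836, and capitals mark the motif found.
Pck1: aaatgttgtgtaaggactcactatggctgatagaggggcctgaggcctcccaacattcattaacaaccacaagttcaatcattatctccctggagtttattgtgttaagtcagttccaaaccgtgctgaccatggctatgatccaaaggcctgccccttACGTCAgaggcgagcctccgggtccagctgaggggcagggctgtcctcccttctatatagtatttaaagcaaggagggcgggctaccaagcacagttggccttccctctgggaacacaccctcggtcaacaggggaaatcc
G6pc: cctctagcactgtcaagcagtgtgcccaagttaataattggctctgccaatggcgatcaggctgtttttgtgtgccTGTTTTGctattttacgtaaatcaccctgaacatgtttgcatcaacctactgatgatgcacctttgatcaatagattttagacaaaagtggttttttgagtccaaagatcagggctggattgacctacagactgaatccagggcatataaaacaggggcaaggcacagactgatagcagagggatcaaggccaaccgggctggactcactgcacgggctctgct
Igfbp1: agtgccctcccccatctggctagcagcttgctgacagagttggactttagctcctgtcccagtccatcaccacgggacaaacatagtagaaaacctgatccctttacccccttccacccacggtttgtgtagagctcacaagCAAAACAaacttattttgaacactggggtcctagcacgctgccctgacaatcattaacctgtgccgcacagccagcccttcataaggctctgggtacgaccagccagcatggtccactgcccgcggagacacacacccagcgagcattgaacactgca
Both strands of every window were searched. The cAMP response half-site was spelled TGACGT, which reads ACGTCA on the opposite strand. The insulin response core was spelled CAAAACA, which reads TGTTTTG on the opposite strand. The forkhead core was spelled GTAAACA, which reads TGTTTAC on the opposite strand. The half-site in Pck1 began 91 bases before the start, the insulin response core in G6pc 174 bases before it and that in Igfbp1 108 bases before it. These distances are from the RefSeq start, which is not the GENCODE gene start given below. For G6pc the GENCODE start, 101367561, lies within the 250 bases before the RefSeq start. A promoter was present for 9 of the 10 genes, and 6 of them held a match. Of 32851 promoters of the same length, 7.51% held the cAMP half-site, 6.28% the insulin response core and 3.65% the forkhead core. A match of letters is a description and was not tested for binding.

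Each liver had between 46066381 and 60419223 counts in total, which is more than the average read depth given in the study's methods, and the reason is not given in the sources used here. Levels are given as CPM (counts scaled to the same library total in every liver) after correction of the totals by TMM, a trimmed mean of log ratios, and are listed in the order of replicates 1, 2 and 3 of a group. The test of each difference was the two-sided quasi-likelihood test of edgeR, and p-values were adjusted over all 11968 genes by the Benjamini-Hochberg method. The livers differed in how their counts depended on the exon length of a gene. Over the 7634 genes whose mean reached 10 CPM, the deviation of a liver from its group mean changed by between -0.12 and 0.13 on the log2 scale with each doubling of exon length. Female statin replicate 1 and male statin replicate 3 had the lowest slopes, and female statin replicate 2 and male statin replicate 1 the highest. The 6 hepatocyte markers were high in every liver, with Alb at 54510 CPM or above, and the 3 adipocyte markers summed to at most 0.0966 CPM. Ins2 was at 0 counts in all 12 livers.

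Per kilobase of exon, Fbp1 and Pck1 were the most abundant of the 10 genes, with group means between 681 and 974 and between 493 and 830 CPM per kb. Fbp1 was the higher of them except in statin males, where it was at 776 and Pck1 at 830 CPM per kb. Igfbp2 (159 to 218 CPM per kb) and Pcx (145 to 176 CPM per kb) followed, and then G6pc (44.7 to 91.1 CPM per kb) and Igfbp1 (18.1 to 60.2 CPM per kb). The signaling genes were lower, with Insr at 12.02 to 14.2, Irs2 at 4.11 to 6.67, Irs1 at 2.29 to 2.74 and Ppargc1a at 2.23 to 2.96 CPM per kb. The ranges of group means overlapped for the neighbours Fbp1 and Pck1, Igfbp2 and Pcx, G6pc and Igfbp1, and Irs1 and Ppargc1a. Pcx lay above Igfbp2 in chow females (176 and 168 CPM per kb), and Ppargc1a above Irs1 in chow females and statin males.

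None of the 10 genes passed an adjusted p of 0.05 with statin in either sex. In females 0 of the 10 genes passed, against 12 of all genes (0.100%), and 0 had an unadjusted p under 0.05, against 10.5% of all genes, by edgeR. In males 0 of the 10 genes and 0 of all genes (0%) passed, and at an unadjusted p under 0.05 the counts were 0 of the 10 and 1.96% of all genes. DESeq2 also called 0 of the 10 genes in either sex, with 0 in females and 1 in males (Pck1) at an unadjusted p under 0.05. The adjusted p of the 10 genes by edgeR ran from 0.700 to 0.996 in females and was 1.00 for each in males. No gene of the 10 had its 3 statin livers wholly above or below its 3 chow livers, where in females 6.03% of all genes lay wholly above and 5.97% wholly below, and in males 3.64% and 4.30%. The median log2 fold change of the 10 genes was -0.07 in females and 0.10 in males, beside 0.01 and 0.0036 over all genes. The summed level of the 6 hepatocyte markers was 96741 to 130216 CPM in chow females and 114426 to 156760 CPM in statin females, and 77845 to 128661 and 81708 to 96902 CPM in chow and statin males, and its part in these values was not tested. In these whole livers, fewer cells of a type and less RNA per cell cannot be told apart.

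**Figure D1:**
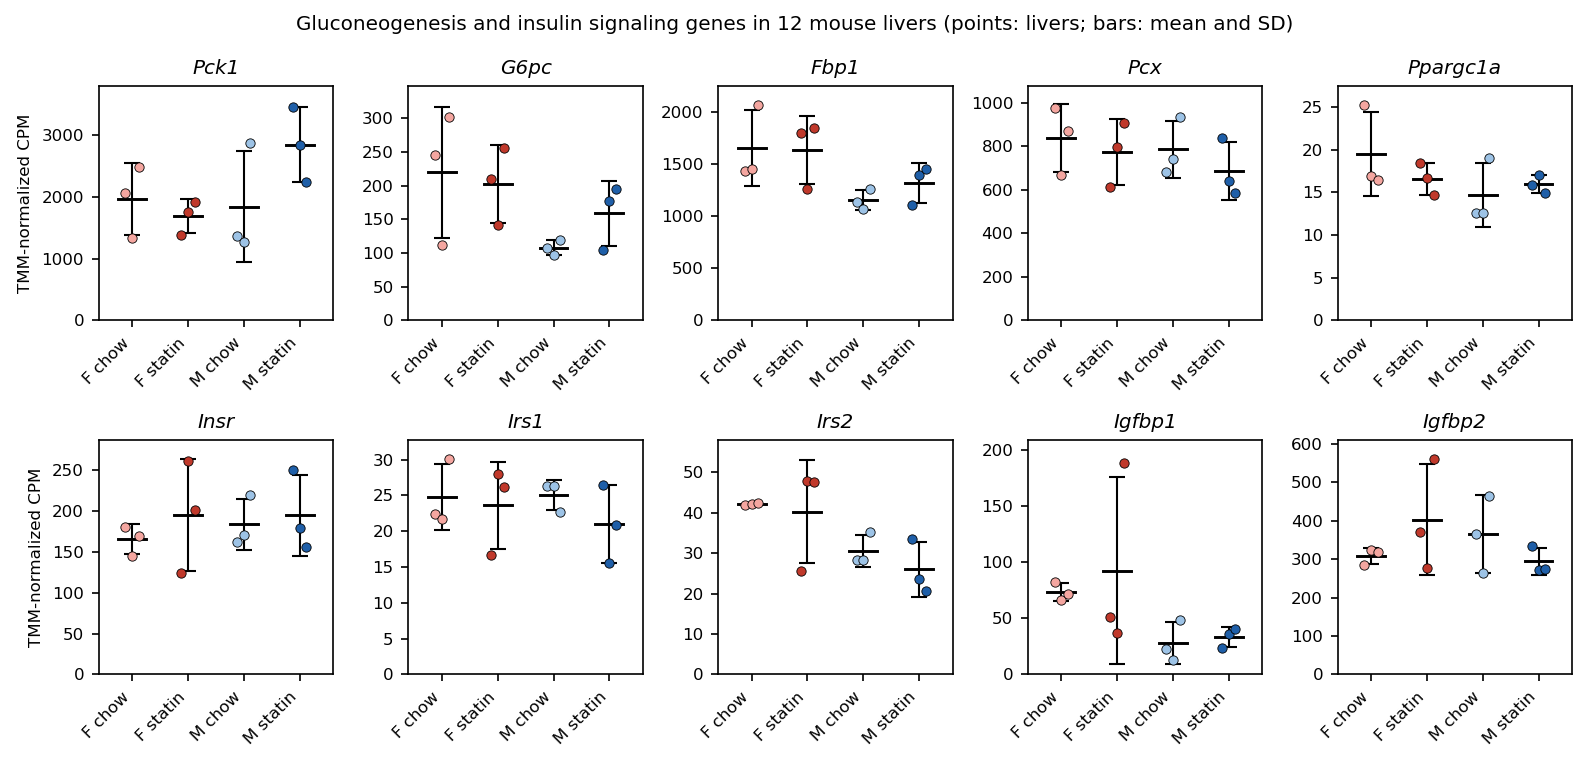
TMM-normalized CPM of the 10 genes on linear axes from 0, with each point a liver, the wide line the mean and the bar the SD of 3 livers in female (F) and male (M) chow and statin groups. Statin and chow livers overlap for every gene in both sexes, and 1 female statin liver stands high for Igfbp1, at 188 CPM.

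Pck1 encodes cytosolic phosphoenolpyruvate carboxykinase, which commits oxaloacetate to glucose (GRCm38 chromosome 2, 173153048 to 173159273, plus strand). Its levels were 2069, 1333 and 2487 CPM in chow females and 1389, 1765 and 1917 CPM in statin females. In males they were 1372, 1275 and 2878 CPM on chow and 3459, 2836 and 2244 CPM on statin. The statin males included the highest liver of all 12, but chow male replicate 3 lay above 2 of them, so the groups overlapped. The log2 fold change was -0.22 in females (95% interval -0.91 to 0.48, adjusted p = 0.939, edgeR). In males it was 0.63 (95% interval -0.07 to 1.32, adjusted p = 1.00, edgeR), the highest estimate among the 10 genes in that sex. Without chow male replicate 3 it was 1.10 (adjusted p = 1.00, edgeR). The difference between the sexes in the response was -0.84 (95% interval -1.82 to 0.14, adjusted p = 0.737, edgeR). On chow, females and males differed by 0.09 (adjusted p = 0.898, edgeR).

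G6pc encodes the catalytic subunit of glucose-6-phosphatase, the last step before glucose leaves the hepatocyte (chromosome 11, 101367561 to 101377903, plus strand). Its levels were 246, 112 and 301 CPM in chow females, and 210, 141 and 256 CPM in statin females. In chow males they were 107, 96.9 and 119 CPM, and in statin males 104, 178 and 196 CPM. The second liver was the lowest of each female group, and 2 of the 3 statin males lay above all chow males. With statin the log2 change was -0.12 in females (95% interval -0.85 to 0.61, adjusted p = 0.980) and 0.56 in males (95% interval -0.17 to 1.29, adjusted p = 1.00) by edgeR. The difference between the sexes in the response was -0.68 (95% interval -1.71 to 0.35, adjusted p = 0.849, edgeR).

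Fbp1 encodes the liver form of fructose-1,6-bisphosphatase (chromosome 13, 62864753 to 62888282, minus strand), and Pcx encodes pyruvate carboxylase, which feeds pyruvate into the pathway (chromosome 19, 4510472 to 4621752, plus strand). Fbp1 was at 1439, 1460 and 2074 CPM in chow females, 1801, 1259 and 1845 CPM in statin females, 1142, 1071 and 1261 CPM in chow males and 1106, 1401 and 1457 CPM in statin males. Its estimate with statin on the log2 scale was -0.02 in females (95% interval -0.45 to 0.41) and 0.19 in males (95% interval -0.24 to 0.62). Pcx was at 976, 670 and 870 CPM in chow females, 611, 799 and 908 CPM in statin females, 680, 742 and 934 CPM in chow males and 837, 638 and 586 CPM in statin males. The 4 groups of Pcx overlapped throughout, and its log2 fold change was -0.12 in females (95% interval -0.57 to 0.33) and -0.19 in males (95% interval -0.64 to 0.26).

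Ppargc1a encodes PGC-1alpha, a coactivator that raises gluconeogenic transcription in fasting (chromosome 5, 51454250 to 51567726, minus strand). It was low, at 25.2, 16.9 and 16.5 CPM in chow females, 18.4, 16.7 and 14.7 CPM in statin females, 12.5, 12.6 and 19.0 CPM in chow males and 15.9, 17.05 and 14.9 CPM in statin males. A single chow liver in each sex lay above the rest. Its log2 change with statin was -0.23 in females (95% interval -0.66 to 0.20) and 0.12 in males (95% interval -0.31 to 0.55).

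**Figure D2:**
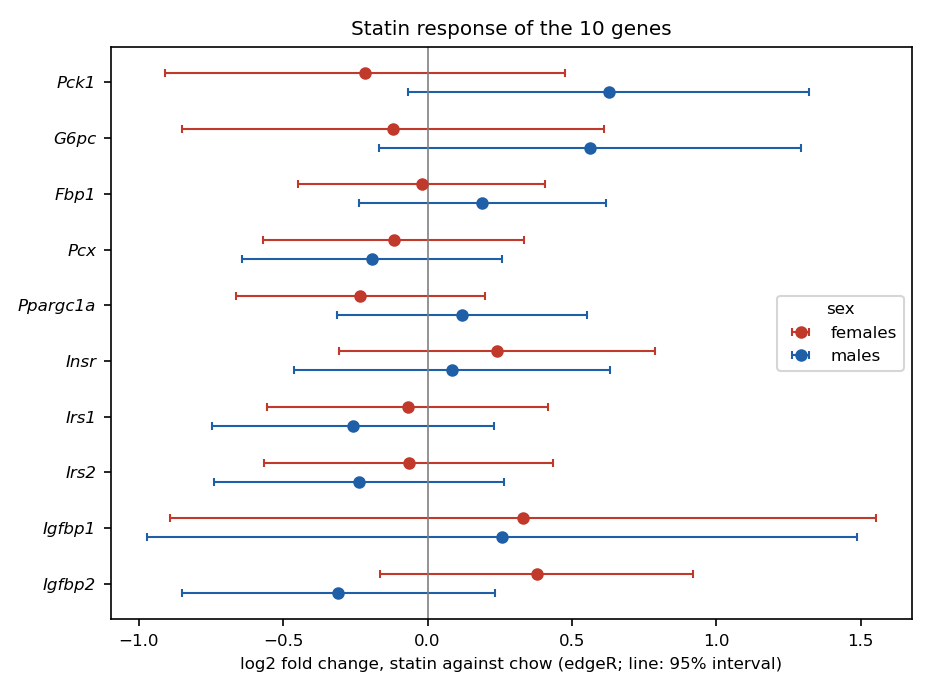
log2 fold change of statin against chow (x axis) for the 10 genes in females (red) and males (blue) with its 95% interval from edgeR. Every interval includes 0, and the widest are those of Igfbp1, from -0.89 to 1.55 in females.

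Insr encodes the insulin receptor (chromosome 8, 3122061 to 3279617, minus strand). Its levels were 181, 145 and 170 CPM in chow females, 125, 261 and 201 CPM in statin females, 162, 171 and 220 CPM in chow males and 251, 179 and 155 CPM in statin males. The statin livers spread on both sides of the chow livers in each sex. Insr had a log2 change of 0.24 in females (95% interval -0.31 to 0.79, adjusted p = 0.873, edgeR) and 0.08 in males (95% interval -0.46 to 0.63, adjusted p = 1.00, edgeR).

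Irs2, the docking protein whose gene insulin represses (chromosome 8, 10984681 to 11008458, minus strand), was at 42.0, 42.2 and 42.3 CPM in chow females and at 25.6, 47.8 and 47.5 CPM in statin females. In males it was at 28.4, 28.2 and 35.2 CPM on chow and 33.6, 23.7 and 20.7 CPM on statin. The 3 female chow livers were nearly equal, with an SD of 0.407% of the mean, while the first female statin liver lay far below the others of its group. Its log2 change was -0.06 in females (95% interval -0.56 to 0.43) and -0.24 in males (95% interval -0.74 to 0.26). Irs1, the other docking protein (chromosome 1, 82233101 to 82291416, minus strand), ranged from 15.5 to 30.1 CPM over the 12 livers. Its log2 fold change was -0.07 in females (95% interval -0.56 to 0.42) and -0.26 in males (95% interval -0.75 to 0.23). Genes on the other strand overlap Pcx, Ppargc1a, Insr, Irs1 and Irs2, others on the same strand overlap Ppargc1a, and since the strand setting of the counting is not given in the sources used here, reads of overlapping parts cannot be assigned with certainty.

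The spread of several of the 10 genes, above all Insr, moved with the exon length trend of the livers. The deviation of Insr from its group mean had a Pearson correlation of 0.957 with the length slope over 12 livers, that of Irs2 0.858, that of Pcx 0.764, that of Pck1 0.582 and that of Irs1 0.531. It was 0.303 for Ppargc1a, whose exons at 6.59 kb are longer than those of Irs2 and Pcx. Among the shorter genes it was -0.641 for Fbp1, -0.397 for G6pc, -0.149 for Igfbp1 and -0.029 for Igfbp2. These deviations are from the same libraries as the slopes and share their composition. Insr and Irs2 deviated together (r = 0.932 over 12 livers). With the length trend of each liver removed, the Insr estimate in females was 0.19 with a standard error of 0.16, which had been 0.25, and again 0 of the 10 genes passed an adjusted p of 0.05 in either sex. What set the length trend was not tested.

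**Figure D3:**
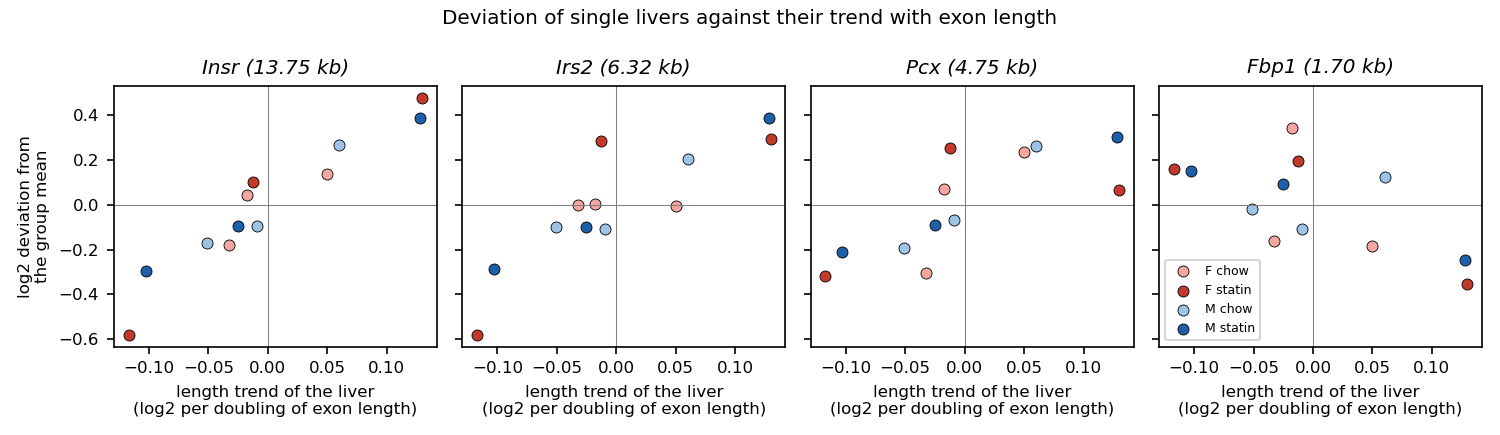
Deviation of each liver from its group mean (y axis, log2 CPM) against the liver's trend with exon length (x axis, log2 change per doubling of exon length) for Insr, Irs2, Pcx and Fbp1, with exon lengths in the panel titles and points colored by group. Insr rises along the trend in all 4 groups (r = 0.957 over 12 livers), and for Fbp1 r is -0.641.

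Igfbp1 encodes an insulin-repressed protein that binds insulin-like growth factors (chromosome 11, 7197782 to 7202546, plus strand). Its levels were 82.1, 66.2 and 70.9 CPM in chow females, 50.9, 36.8 and 188 CPM in statin females, 22.6, 12.03 and 48.1 CPM in chow males and 23.4, 35.5 and 39.9 CPM in statin males. In the female statin group 2 livers lay below all chow females and the third above them. The log2 fold change in females was 0.33 (95% interval -0.89 to 1.55, adjusted p = 0.950, edgeR), and without statin female replicate 3 it was -0.72 (adjusted p = 0.900, edgeR), so that its direction rested on 1 liver. With limma the estimate over all livers was -0.043. In males it was 0.26 (95% interval -0.97 to 1.49, adjusted p = 1.00, edgeR).

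Igfbp2, the more abundant binding protein (chromosome 1, 72824503 to 72852474, plus strand), was at 286, 323 and 320 CPM in chow females and 369, 277 and 560 CPM in statin females. In males it was at 366, 263 and 465 CPM on chow and 336, 273 and 274 CPM on statin. The highest value was again that of statin female replicate 3. The log2 fold change was 0.38 in females (95% interval -0.16 to 0.92, adjusted p = 0.700, edgeR) and -0.31 in males (95% interval -0.85 to 0.23, adjusted p = 1.00, edgeR). Without statin female replicate 3 the estimate in females was 0.078, and without chow male replicate 3 that in males was -0.095. The difference between the sexes in the response was 0.69 (95% interval -0.08 to 1.45, adjusted p = 0.706, edgeR). Igfbp1 and Igfbp2 deviated together from their group means (r = 0.833 over 12 livers), as did G6pc and Fbp1 (r = 0.789). Pcx did so as closely with Insr (r = 0.835), Pck1 (r = 0.834) and Irs2 (r = 0.791). For the levels of Igfbp1 and Igfbp2, without group means taken off, r was 0.557. Statin female replicate 3 had the highest deviation of both, at 1.39 and 0.54 on the log2 scale.

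For the difference between the sexes in the statin response, 0 of the 10 genes and 0 of all genes (0%) passed an adjusted p of 0.05 by edgeR, and 0 of the 10 and 8.01% of all genes had an unadjusted p under 0.05. DESeq2 called 0 of the 10 genes as well, with 0 at an unadjusted p under 0.05. The estimates ran from -0.84 for Pck1 to 0.69 for Igfbp2, and they rest on the same livers as the comparisons within each sex.

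Between the sexes on chow, 0 of the 10 genes passed an adjusted p of 0.05 by edgeR, against 10.4% of all genes, and DESeq2 called 1, G6pc, against 16.3% of all genes. At an unadjusted p under 0.05 there were 3 of the 10, against 24.9% of all genes, and 3 at that threshold by DESeq2. For 3 of the 10 (Fbp1, Irs2 and Igfbp1) all chow females lay above all chow males, as 18.5% of all genes did, and for 0 they lay below, as 19.1% did. G6pc had a mean of 220 ± 97.4 CPM in chow females and 108 ± 11.2 CPM in chow males (SD, n = 3), a log2 difference of 1.03 (95% interval 0.29 to 1.76, adjusted p = 0.0758, edgeR), and DESeq2 called it (adjusted p = 0.0186). On leaving out 1 liver at a time, the log2 difference of G6pc ran from 0.73 to 1.34. The highest was that without chow female replicate 2 (adjusted p = 0.0201, edgeR). Fbp1 differed by 0.52 (95% interval 0.09 to 0.95, adjusted p = 0.121, edgeR) with livers that did not overlap.

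Igfbp1 had a mean of 73.0 ± 8.17 CPM in chow females and 27.6 ± 18.5 CPM in chow males (SD, n = 3), a log2 difference of 1.41 (95% interval 0.16 to 2.65, adjusted p = 0.146, edgeR). On leaving out 1 liver at a time, the log2 difference of Igfbp1 ran from 1.05 to 2.08. Without statin female replicate 3 in the common fit, its adjusted p was 0.0467 (edgeR). Irs2 differed by 0.46 (95% interval -0.04 to 0.96, adjusted p = 0.241, edgeR), with all chow females above all chow males. The summed level of the 6 Kupffer cell markers was 432 to 528 CPM in chow females and 226 to 346 CPM in chow males, with 0 markers at 0. That of the 5 stellate cell markers was 303 to 368 and 198 to 214 CPM, and that of the 5 endothelial markers 225 to 245 and 147 to 207 CPM, again with 0 markers at 0. The part of these cells in the sex differences was not tested.

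The other genes of the pathway were described by their counts. Of 26 tested genes for other steps of gluconeogenesis, 0 passed an adjusted p of 0.05 with statin in either sex by edgeR, with 9 of the 26 at an unadjusted p under 0.05 in females, against 10.5% of all genes, and 1 in males, against 1.96%. DESeq2, which called 2.26% of all genes in females, called 6 of the 26 in females (among them Gk, Got1, Gpi1 and Slc25a10) and 0 in males. Their statin livers did not overlap the chow livers for 2 higher and 9 lower genes in females, against 6.03% and 5.97% of all genes. Gpi1, which interconverts glucose-6-phosphate and fructose-6-phosphate, was at 735, 592 and 698 CPM in chow females and 379, 399 and 294 CPM in statin females. All 3 statin females lay below the chow females, at a log2 change of -0.92 (adjusted p = 0.0951, edgeR).

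Got1, a cytosolic aspartate aminotransferase, had a log2 change of -1.07 (adjusted p = 0.210) in females by edgeR. Gk, which phosphorylates glycerol, had one of 0.80 (adjusted p = 0.126), and Slc25a10, a mitochondrial dicarboxylate carrier, one of 0.78 (adjusted p = 0.175). In males 0 of the 26 genes lay wholly higher and 3 wholly lower, against 3.64% and 4.30% of all genes. These were Gpd1, Ldha and Gpt, with log2 fold changes of -0.60, -0.51 and -0.22 (adjusted p = 1.00 for each, edgeR), and that of Gpd1 was -0.94 without statin male replicate 1. The median log2 fold change of the 26 genes was -0.03 in females and 0.02 in males.

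Of 42 tested genes listed as regulators of gluconeogenic genes, 0 passed the adjusted threshold in either sex by edgeR, and likewise 0 by DESeq2. At an unadjusted p under 0.05 edgeR gave 4 of the 42 in females, against 10.5% of all genes, and 0 in males, against 1.96%. Foxo1, the factor that insulin keeps out of the nucleus, had a log2 change of 0.07 in females (adjusted p = 0.986) and 0.21 in males (adjusted p = 1.00), and its activity is set after translation. In females 1 of the 42 lay wholly higher and 2 wholly lower, which was no larger a share than the 6.03% and 5.97% of all genes. They were the kinase gene Sik2 (0.31), the transcription factor gene Klf15 (-0.41) and the glycogen-targeting subunit gene Ppp1r3g (-1.42, or -0.90 without statin female replicate 3), on the log2 scale. Ppp1r3g was on this list although its product acts on glycogen. Of 44 tested genes of insulin signaling downstream of the receptor, 0 passed in either sex by edgeR. At an unadjusted p under 0.05 there were 6 of the 44 in females and 1 in males, near the 10.5% and 1.96% of all genes, and DESeq2 called 1 in females (Socs3), near its 2.26% of all genes, and 0 in males. Livers did not overlap for 0 higher and 5 lower genes in females, against 6.03% and 5.97% of all genes, and for 2 higher and 4 lower genes in males, against 3.64% and 4.30%. Socs3, an inhibitor of cytokine and insulin signaling, was at 25.8, 42.9 and 9.53 CPM in chow females and 7.84, 9.21 and 6.90 CPM in statin females. The chow females varied widely but all lay above the statin females, at a log2 change of -1.71 (adjusted p = 0.186, edgeR). Shc1, Rheb and Eif4ebp1 were also lower without overlap in females, by log2 fold changes of -0.24, -0.26 and -0.26, and without statin female replicate 3 that of Eif4ebp1 was -0.13. In males Tsc1 (-0.41), Mlst8 (-0.30) and Grb14 (-0.17, or -0.11 without statin male replicate 3) were lower without overlap, on the log2 scale.

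Of 8 genes listed as raised by insulin in liver, 0 passed the adjusted threshold in either sex by edgeR, and likewise 0 by DESeq2. At an unadjusted p under 0.05 edgeR gave 3 of the 8 in females, against 10.5% of all genes, and 1 in males, against 1.96%. In females 4 of the 8 lay wholly lower with statin, against 5.97% of all genes, and the median log2 fold change of the 8 was -0.60, beside 0.01 over all genes. They were Mid1ip1 (-0.63) and Thrsp (-1.19), both tied to fatty acid synthesis, Pfkfb1 (-0.65), a regulator of glycolysis, and Pnpla3 (-1.67), a lipid droplet protein, on the log2 scale, with adjusted p of 0.248, 0.415, 0.284 and 0.579 by edgeR. The statin females spread widely for Thrsp, at 948, 385 and 253 CPM, and for Pnpla3, at 27.7, 15.6 and 0.556 CPM. Without statin female replicate 1 the log2 changes of Thrsp and Pnpla3 were -1.91 and -2.50, and without replicate 3 of that group -0.85 and -1.09. In males the median was -0.21. Insig2 (-0.57 in females, with overlapping livers) was also on this list, and whether insulin raises it in these livers was not tested.

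Of 21 genes known to rise in fasted liver, 1 passed the adjusted threshold in females, against 0.100% of all genes, and 0 in males by edgeR, with 9 (7 higher and 2 lower) and 4 (1 higher and 3 lower) at an unadjusted p under 0.05, against 10.5% and 1.96% of all genes. DESeq2 called 5 in females and 0 in males, against 2.26% and 0.0334% of all genes. Among the 5 were Acot1, Creb3l3 and Fgf21, which were higher with statin, and Tat, which was lower (a log2 change of -0.91 by edgeR, adjusted p = 0.241). Livers did not overlap for 6 higher and 2 lower genes in females, against 6.03% and 5.97% of all genes, and for 1 higher and 4 lower genes in males, against 3.64% and 4.30%. Acot1, an acyl-CoA thioesterase, rose in females by 2.14 on the log2 scale (adjusted p = 0.0306, edgeR). Its reads may be shared with the near-identical Acot2, and its adjusted p was between 1.9e-10 and 0.314 over 23 alternatives, 15 of which kept it past the threshold. The call was lost on leaving out chow female replicate 2 (adjusted p = 0.109), statin female replicate 3 (0.0784), any 1 of the 3 chow males (0.0585, 0.0618 and 0.0528) and statin male replicate 2 or 3 (0.0719 and 0.0642), and with each sex fitted alone (0.314).

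Fgf21, a fasting hormone of the liver, was at 1.81, 1.54 and 0.698 CPM in chow females and 3.80, 2.84 and 2.34 CPM in statin females. In males it was at 2.26, 1.93 and 1.46 CPM on chow and 1.19, 1.04 and 0.934 CPM on statin. Statin livers were wholly above chow livers in females and wholly below them in males, with log2 fold changes of 1.14 (adjusted p = 0.217) and -0.83 (adjusted p = 1.00) by edgeR. Creb3l3, a fasting-activated transcription factor, was higher without overlap in females (log2 change 0.69, adjusted p = 0.0951, edgeR). Pdk4, a kinase that holds back pyruvate oxidation, was at 17.02, 8.03 and 5.89 CPM in chow females and 16.6, 15.9 and 16.5 CPM in statin females. The first chow female lay above the statin females, and the log2 fold change was 0.66 (adjusted p = 0.509, edgeR), or 1.24 without that liver and 0.39 without chow female replicate 3. In males Pdk4 had a log2 change of -0.26 (-0.45 to -0.083 on leaving out 1 liver, the ends without statin and chow male replicate 3), and the metallothionein genes Mt1 and Mt2 were lower without overlap, by -0.97 and -1.47 (adjusted p = 1.00 for each, edgeR).

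**Figure D4:**
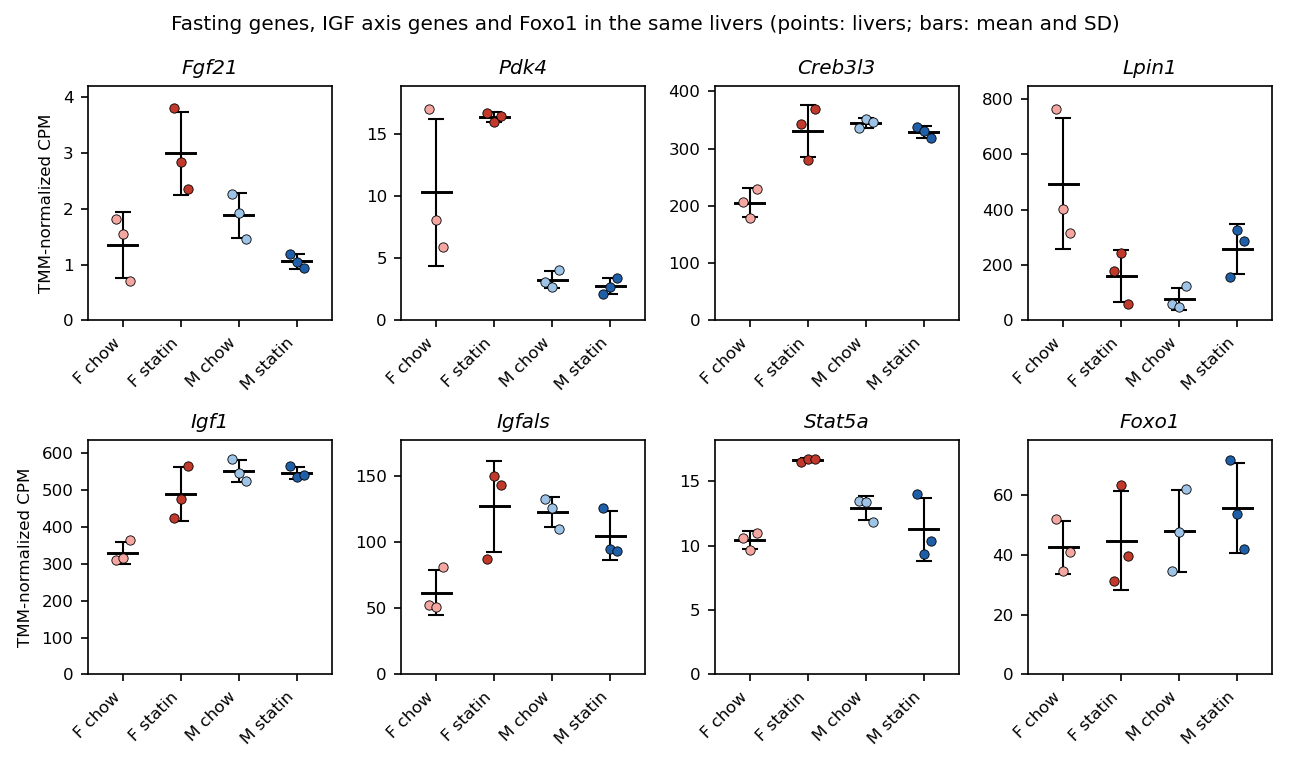
TMM-normalized CPM, on linear axes from 0, of fasting genes, genes of the IGF axis and Foxo1, with points for livers and bars for mean and SD of 3 livers per group. Fgf21 and Lpin1 lie on opposite sides of chow in the sexes, and the 3 statin females lie above the 3 chow females for Igf1, Igfals and Stat5a.

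Of 14 tested genes of the IGF axis, 0 passed the adjusted threshold in either sex by edgeR, with 5 of the 14 in females, against 10.5% of all genes, and 0 in males, against 1.96%, at an unadjusted p under 0.05. DESeq2 called 4 in females (Igf1, Igfals, Prlr and Stat5a), against 2.26% of all genes, and 0 in males. In females 4 of the 14 lay wholly higher with statin and 0 lower, against 6.03% and 5.97% of all genes. Igf1, the growth factor that the binding proteins carry, was at 311, 314 and 363 CPM in chow females and 423, 476 and 565 CPM in statin females. The groups did not overlap, at a log2 change of 0.57 (adjusted p = 0.129, edgeR). In chow males it was at 584, 545 and 525 CPM and in statin males at 563, 533 and 540 CPM, above all chow females, and the log2 fold change was -0.02 (adjusted p = 1.00, edgeR). Igfals, which stabilizes circulating IGF complexes, had a log2 change of 1.04 in females (adjusted p = 0.110). Those of Stat5a, a growth hormone-activated factor, and Ghr, the growth hormone receptor, were 0.67 (adjusted p = 0.110) and 0.26 (adjusted p = 0.522).

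The genes whose levels followed those of single members most closely were found from Pearson correlations of log2 CPM over the 12 livers. For Pck1 they were Vasn (r = 0.847), Spata2l (r = 0.835) and Etnppl (r = 0.829). Those for Irs2 were Itih3 (r = 0.956), Itih4 (r = 0.953) and Mcam (r = 0.935), and those for Igfbp1 were Tfrc (r = 0.885), Cpb2 (r = 0.882) and Mat1a (r = 0.879). The median correlation over all genes was -0.01, 0.01 and 0.01, and all points share the 12 libraries. For deviations from group means the named genes had r of 0.782 to 0.840 with Pck1, 0.899 to 0.944 with Irs2 and 0.795 to 0.871 with Igfbp1. They were picked as the highest of all genes tested, and the part of the length trend in them was not tested.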

How the data were processed

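Poly(A) RNA of 12 livers was sequenced with a strand-specific kit. Per the labels and the submitters' processing notes, the authors aligned reads to GRCm38 with STAR 2.4.1a, and HTSeq is named without a role. The study's methods give edgeR 3.28.1 as the authors' tool for differential expression. The authors deposited counts per gene for 11968 genes (those above 1 CPM in at least 6 livers) in a table described as TMM-normalized, whose values were whole reads, and CPM values for 48526 genes, of which 100.0% were whole reads within 0.05 reads. 0 values differed between the tables.

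The counts were fitted with edgeR 4.0.16 (quasi-likelihood, TMM, 12 livers, 4 groups, no covariate) in R 4.3.3. Comparisons were statin against chow in each sex, the interaction, and females against males on chow. DESeq2 1.42.0, limma 3.58.1, other scalings and filters, each sex alone, a replicate block, leaving out the 10 highest genes and leaving out each liver were alternatives, and removal of the length trend was added after seeing the data. On simulated counts of 11968 genes for the comparison in females, edgeR found 122 of 200 genes with a simulated log2 change of 1 (7 false calls) and 198 of those with one of 2 (11 false calls), and DESeq2 found 166 (34 false calls) and 198 (40 false calls). At the deposited totals counting error is small for the 10 genes, and 3 livers per group limit the precision.

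The 10 genes and the lists were chosen with earlier results of these data known. Besides the 10, the genes named were up to 4 per list and sex ranked lowest by p among genes with non-overlapping livers, list genes past the threshold, Foxo1, Igf1, Pdk4 and Fgf21, and the 3 genes most like Pck1, Irs2 and Igfbp1. Some genes that this rule takes in are not reported here. Tat and Prlr, called by DESeq2, and Insig2 were named after their values were seen. Positions and exon lengths are from GENCODE vM21 of GRCm38, another release than the authors name, and promoters from RefSeq (GRCm38.p6). Marker lists of cholangiocytes, blood cells and pancreas were also read: their summed levels per liver were 18.9 to 51.6, 68.0 to 241 and 0.298 to 2.04 CPM. Python 3.11.15, numpy 2.4.6, pandas 2.3.3 and matplotlib 3.10.9 were used.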

Additional observations from a re-analysis of the deposited data

Results flagged for a closer look

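For 3 of the 165 tested genes of the pathway lists (1.82%), statin and chow livers did not overlap in either sex and their order was opposite in females and males, as it was for 134 of all 11968 genes (1.12%). The 3 genes are described here because they had this order. The sex difference in response was tested as an edgeR interaction. Fgf21 was higher in females and lower in males, with a difference of 1.98 on the log2 scale (adjusted p = 0.277). Lpin1, a phosphatidate phosphatase and transcriptional coactivator, was at 762, 402 and 317 CPM in chow females and 180, 242 and 60.4 CPM in statin females. In males it was at 59.2, 49.8 and 125 CPM on chow and 156, 328 and 288 CPM on statin, and the difference was -3.34 (adjusted p = 0.259). Eif4ebp1, a translation repressor downstream of insulin signaling, was lower in females and higher in males, with a difference of -0.42 (adjusted p = 0.527). None of the 3 differences passed the threshold by edgeR. Over the alternatives the adjusted p of the Fgf21 difference ran from 0.0132 to 0.709 and that of Lpin1 from 0.000437 to 0.704, each past the threshold in 2 alternatives.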

How the results depend on the processing

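Of 900 values of the 10 genes under alternatives, 853 kept their direction and their side of the threshold, 41 changed sign and 6 newly passed. In the statin comparisons and their difference between the sexes, 0 of the 10 genes passed an adjusted p of 0.05 under any alternative. DESeq2 called 270 genes in females, 4 in males, 130 for the difference between the sexes and 1946 on chow, 1 of them among the 10 (G6pc). With no filter on low counts there were 148 genes in females and 103 for the difference, and 2 of the 10 on chow (G6pc, adjusted p = 0.00955, and Igfbp1, adjusted p = 0.0179, edgeR). With each sex fitted alone 0 genes passed in females. The causes were not tested.

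Livers with the same number were different mice, and the correlation of their deviations was between -0.56 and 0.15 over 6 pairs, so the numbers do not pair the livers. Of 12 livers, 3 correlated best with the liver of their own number. Under a replicate block 5 genes passed in females and 1 of the 10 on chow (Igfbp1, adjusted p = 0.0490, edgeR), and Igfbp1 was at -0.040 in females and -0.51 for the difference between the sexes. The block changed no other call among the 10 genes.

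Igfbp1 also changed sign with limma, to -0.043 in females and -0.49 for the difference with either prior count, and with library size alone to -0.037 for the difference. Irs1 on chow was at 0.00 with the stricter filter (0.0031) and with the length trend removed (0.0024), where Igf1 in males was at 0.0021.

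Leaving out 1 liver at a time gave 0 to 75 genes in females, 0 to 14 for the difference and 635 to 1586 on chow, with 0 to 1 of the 10 genes on chow. Estimates of the 10 genes that kept their sign but moved by over 1.5 times were these. In females Pck1 ran from -0.43 to -0.0037 and Igfbp2 from 0.078 to 0.58. In males Pck1 ran from 0.42 to 1.10, Fbp1 from 0.11 to 0.30, Pcx from -0.36 to -0.050, Ppargc1a from 0.017 to 0.35, Irs1 from -0.46 to -0.082, Irs2 from -0.46 to -0.097 and Igfbp2 from -0.50 to -0.095. For the difference between the sexes Pck1 ran from -1.32 to -0.64, G6pc from -1.01 to -0.40, Fbp1 from -0.32 to -0.021, Ppargc1a from -0.58 to -0.12, Irs1 from 0.013 to 0.39, Irs2 from 0.021 to 0.41 and Igfbp2 from 0.38 to 0.89. On chow Fbp1 ran from 0.32 to 0.60, Ppargc1a from 0.17 to 0.64, Insr from -0.24 to -0.0080 and Igfbp2 from -0.43 to -0.022. The following log2 fold changes changed sign. In females they ran from -0.11 to 0.18 for Fbp1, -0.43 to 0.18 for G6pc, -0.72 to 0.70 for Igfbp1, -0.026 to 0.49 for Insr, -0.21 to 0.14 for Irs1, -0.21 to 0.18 for Irs2, -0.25 to 0.030 for Pcx, -0.33 to 0.0047 for Ppargc1a and -0.26 to 0.29 for Foxo1. In males they ran from -0.10 to 0.93 for Igfbp1, -0.14 to 0.23 for Insr, -0.011 to 0.44 for Foxo1 and -0.050 to 0.028 for Igf1. For the difference between the sexes they ran from -0.99 to 0.43 for Igfbp1, -0.12 to 0.40 for Insr, -0.068 to 0.24 for Pcx and -0.48 to 0.085 for Foxo1. On chow they ran from -0.19 to 0.063 for Irs1, -0.12 to 0.57 for Pck1 and -0.036 to 0.24 for Pcx.

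With 3 livers a group, the 95% intervals of the 10 genes in the statin comparisons leave room for changes in either direction.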
